A study of Triticum aestivum with 3 samples.

Results

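MicroRNAs numbered miR9650 to miR9799 were examined for the transcript fragments paired with them in leaves of wheat (Triticum aestivum) seedlings. A small RNA belonged to this group when its name held miR or MIR followed by a whole number in that range. Membership was decided by name alone, but the range was chosen with earlier results of these data known. This gave 47 of the 1233 small RNA names in the data, in 27 families, on 451 of 12450 listed pairs of a small RNA and a transcript. Of the 47 names, 39 were wheat (tae), 6 were from the goat grass Aegilops tauschii (ata), a donor of wheat's D genome, and 2 were from soybean (gma). The soybean names, gma-miR9726_L+1R-5 and gma-MIR9766-p5_2ss15AC17CG, were the only ones of their families, so 25 of the 27 families carried a name from the Triticeae. A name ending in miR-5p, miR-3p or the bare number stands for a mature microRNA (27 names), while MIR with p5 or p3 stands for an arm of the hairpin precursor (20 names). A suffix such as _1ss21GA or _L-1 was attached to 20 names and is not defined in the sources used here.

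Plant microRNAs are short RNAs cut from hairpin precursors that guide an Argonaute protein to matching transcripts, which the protein can slice. The downstream fragment of a sliced transcript carries a 5′ monophosphate, and degradome sequencing reads the 5′ ends of RNAs that carry one. Ordinary decay also leaves such ends. MicroRNA family numbers follow the order of registration, so neighbouring numbers imply no common ancestry. Families restricted to wheat and its relatives are commonly regarded as young, and microRNAs of this kind are known for low abundance and for few established targets. The small RNAs themselves were not measured in the data used here.

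The study compared 3 treatments of 2 days, with leaves sampled from 3 independent biological replicates in each, and asked which transcripts microRNAs target under stress of the endoplasmic reticulum (ER). The control is labelled only as such. One treatment was dithiothreitol (DTT), a reducing agent that opens disulphide bonds and so leaves ER proteins misfolded, and the other was DTT together with tauroursodeoxycholic acid (TUDCA), a bile acid that is used to ease protein folding. Doses and cultivar are not stated in the labels. All values are raw degradome reads, or reads per 10M library reads. The library reads, recovered from the authors' scaling of each library, came to 11.25M to 13.01M. The headers do not say whether they count raw, filtered or mapped reads.

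Related small RNAs and related transcripts are often listed with the same counts. Lines with a small RNA or a transcript in common and nearly the same counts were therefore merged and counted once, as 1 signal. The reads themselves were not compared, so at low counts lines of different reads can be merged. The 451 pairs then formed 187 of the 4574 signals of the whole series (4.09%) and held 2635 of its 55312 reads (4.76%). They lay on 414 of 7483 transcripts. Depth was low. The median signal had 3 reads over all 9 libraries, 108 signals (57.8%) had 3 reads or fewer and 35 (18.7%) had 10 or more, against 61.6% and 15.5% in the whole series. Of the 187, 28 also held lines of small RNAs outside the number range, so by counts they were not told apart from those. Of these, 25 belonged to miR9668, 2 to miR9772 and 1 to miR9672. In whole leaves, a change in the cells that hold a transcript and a change of RNA per cell cannot be told apart, and whether slicing or transcript amount set the reads was not tested.

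The reads were concentrated in few families. miR9676 held 1389 reads, or 52.7% of all reads in the number range, followed by miR9674 with 256 (9.72%), miR9662 with 238 (9.03%), miR9670 with 207 (7.86%) and miR9668 with 128 (4.86%). These 5 families together held 84.2%. The miR9676 share depended on how shared reads were counted, at 33.7% without merging of lines and 68.0% by the authors' normalized read number. Of the 27 families, 6 had over 50 reads, 14 had 10 to 50 and 7 had fewer than 10. The family next in order, miR9726 with 60 reads, is a soybean name.

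**Figure D1:**
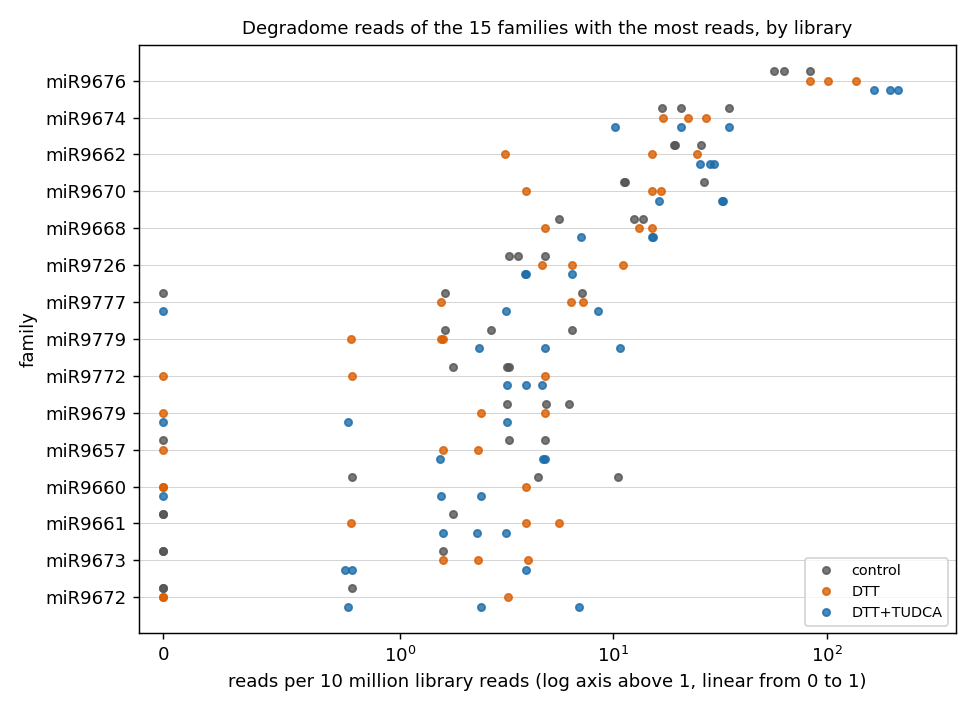
Reads per 10M library reads (horizontal axis, logarithmic above 1 and linear from 0 to 1) of the 15 families with the most reads, with 1 point per library, coloured by treatment. The libraries with DTT and TUDCA stand to the right of the others for miR9676, and DTT replicate 3 is the lowest point for miR9662 (3.10) and miR9670 (3.88).

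The largest signal was that of tae-miR9676-5p on the transcript Novel13637, with 1354 reads. The transcript is named only by this identifier, and the data used here give neither its annotation nor its position. The reads appear to have been unshared, since the authors' normalized read number equalled the raw number. This 1 signal held 51.4% of the reads in the number range. The strongest signal held 29.0% of the reads among the families miR1117 to miR1139, 7.19% among miR5048 to miR5090 and 5.44% in the whole series.

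In the control libraries this signal had 67, 78 and 94 reads, which is 53.4, 63.1 and 83.5 reads per 10M. In the DTT libraries it had 124, 168 and 106 reads, or 98.4, 134.1 and 82.2 per 10M. With DTT and TUDCA it had 206, 270 and 241 reads, or 160.8, 207.6 and 192.1 per 10M. All 3 libraries with TUDCA lay above all 6 others, while the lowest DTT library lay just below the highest control library. The means were 66.7 ± 15.4, 104.9 ± 26.6 and 186.8 ± 23.8 reads per 10M (SD, n = 3).

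The signal was higher under the joint treatment than in control leaves, by 1.49 on the log2 scale (SE 0.30, adjusted p = 0.000223 by edgeR's quasi-likelihood test with Benjamini-Hochberg adjustment over all signals tested). The median signal tested was itself higher by 0.30 in that comparison, and relative to this the signal was higher by 1.19. Under TMM scaling the median stood at 0.09. DTT alone against the control gave 0.65 (SE 0.46, adjusted p = 0.516), and DTT with TUDCA against DTT gave 0.83 (SE 0.43, adjusted p = 0.752), and neither passed the threshold of 0.05 by the same edgeR test. The comparisons with the control use the same 3 control libraries. On the reads per 10M alone, a two-sided exact permutation test gave p = 0.1 for either comparison of DTT with TUDCA and p = 0.2 for DTT against the control, where 0.1 is the smallest value that 3 libraries against 3 allow.

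**Figure D2:**
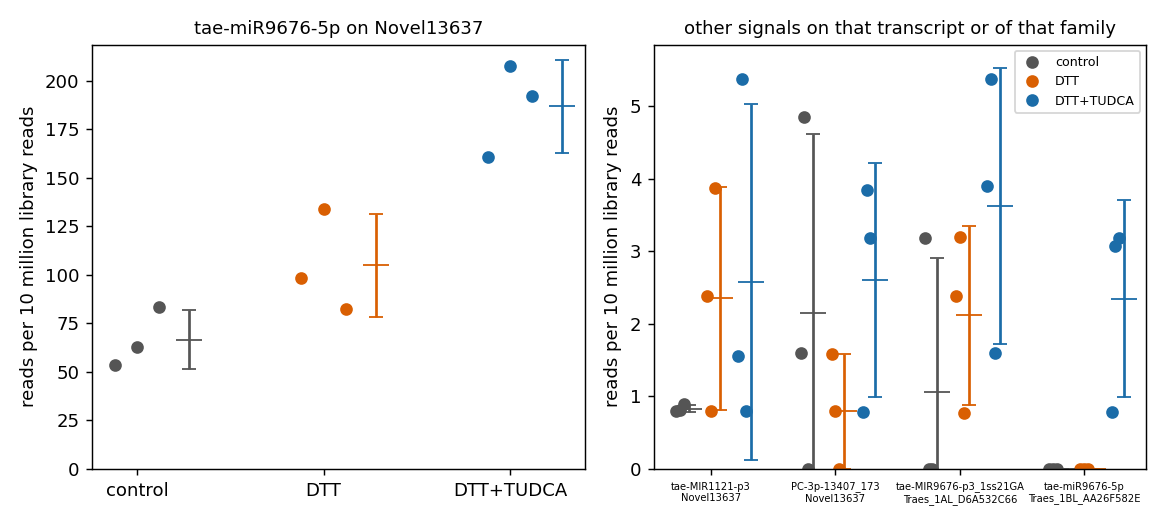
Left, reads per 10M library reads of tae-miR9676-5p on Novel13637, with 1 point per library and bars for the mean ± SD of 3 replicates; right, the same for the other small RNAs on that transcript and the other signals of the family, on a smaller scale. On the left the 3 libraries with DTT and TUDCA sit between 160.8 and 207.6, above all others, and the DTT libraries (82.2 to 134.1) overlap the control libraries (53.4 to 83.5).

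Its place in the libraries moved as well. Among all signals of a library, it ranked 13, 11 and 8 in the control, 8, 6 and 5 with DTT and 3 in each library with TUDCA. Its share of the reads in the number range was 36.2%, 35.3% and 41.0% in the control, 46.3%, 55.1% and 54.1% with DTT and 61.7%, 55.6% and 58.6% with TUDCA. The sum over all 187 signals was 176.5 ± 28.1 reads per 10M in the control, 202.8 ± 46.6 with DTT and 320.7 ± 56.8 with TUDCA. Without this signal the sums were 109.9 ± 13.9, 97.8 ± 24.4 and 133.8 ± 33.1 (SD, n = 3). The ranges of these remaining sums overlapped between all treatments.

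Other small RNAs were listed on the same transcript, each at another level. tae-MIR1121-p3 had 1, 1 and 1 reads in the control, 3, 1 and 5 with DTT and 2, 7 and 1 with TUDCA. PC-3p-13407_173 had 2, 6 and 0, then 2, 1 and 0, then 1, 5 and 4. Both are outside the number range and were chosen after their values were seen. Summed, they had 11 reads in the control and 20 with TUDCA, a ratio per library read of 1.71 with a 95% interval of 0.783 to 3.96. The ratio for tae-miR9676-5p was 2.83 with an interval of 2.44 to 3.29. The intervals overlap and cover counting error only, and the reads of these other small RNAs appear to have been shared over 2 or 3 places each.

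The family had 2 further signals. tae-miR9676-5p on Traes_1BL_AA26F582E, a transcript whose identifier places it on the long arm of chromosome 1B, had no read in the control or DTT libraries and 1, 4 and 4 reads with TUDCA. It was chosen after its values were seen. With 3 reads put in place of 0 for a group, its 9 reads were 2.83-fold higher than the control and 2.97-fold higher than DTT. These values leave out the counting error of the 9 reads and are not lower limits. The raw number was 2.0 times the normalized, so the reads appear to have been shared. The opposite hairpin arm, tae-MIR9676-p3_1ss21GA, was listed on Traes_1AL_D6A532C66 with 4, 0 and 0 reads in the control, 3, 4 and 1 with DTT and 5, 7 and 2 with TUDCA. Both signals were too low to enter a test.

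miR9674 formed 17 signals on 27 transcripts. The hairpin arm tae-MIR9674a-p5 and the mature tae-miR9674b-5p were listed on nearly the same transcripts, 12 in common out of 13 and 12. The strongest signal, tae-MIR9674a-p5 on Novel17129, had 7, 11 and 2 reads in the control, 5, 3 and 4 with DTT and 1, 9 and 7 with TUDCA. On Novel17103 it had 6, 6 and 3, then 8, 9 and 4, then 0, 7 and 5. The treatments overlapped on both transcripts, and the spread within a treatment was as wide as the difference between them.

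On Traes_6DS_7C389C178 tae-MIR9674a-p5 had 1, 8 and 0 reads in the control, 1, 2 and 7 with DTT and 6, 9 and 3 with TUDCA. On Novel08521 it had 6, 8 and 1, then 3, 3 and 0, then 1, 6 and 4. On Novel08317 it had 3, 3 and 3, then 5, 6 and 1, then 0, 6 and 3. These transcripts also showed overlapping treatments. On Traes_5BL_6216A6108, which entered no test, it had 0, 5 and 4 reads in the control, 6, 1 and 0 with DTT and 1, 7 and 2 with TUDCA.

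Replicate 1 with TUDCA was low across these 6 transcripts. Summed, they had 9 reads in replicate 1 with TUDCA against 44 and 24 in the other replicates of that treatment, and in 5 of the 6 that library was lowest or tied for lowest within its treatment. The control sums were 23, 41 and 13, and the DTT sums 28, 24 and 16. Summed over the family, the level was 24.1 ± 9.42 reads per 10M in the control, 22.1 ± 4.97 with DTT and 21.8 ± 12.3 with TUDCA (SD, n = 3).

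None of the miR9674 signals passed a test. Against the control with TUDCA, the log2 difference was -0.30 (SE 0.73) for Novel17129, -0.39 (SE 0.94) for Novel17103, -0.50 (SE 0.97) for Novel08521 and 0.90 (SE 0.97) for Traes_6DS_7C389C178. Adjusted p-values from edgeR's quasi-likelihood test lay between 0.634 and 0.834. Without replicate 1 of DTT with TUDCA, the first turned to 0.19 and the second to 0.18, so their direction rested on that library, and without control replicate 2 the first turned to 0.24. The value for Traes_6DS_7C389C178 rested on single control libraries, since without control replicate 2, which held 8 of its 9 control reads, it was 3.20, and without control replicate 3 it was 0.36. With limma it was 3.52. DTT against the control could be tested for Novel17103 only, at 0.42 (SE 0.81).

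With TUDCA against DTT, tae-MIR9674a-p5 stood at 0.48 (SE 0.85) on Novel17129, -0.81 (SE 0.84) on Novel17103, 0.81 (SE 0.88) on Traes_6DS_7C389C178 and -0.42 (SE 1.11) on Novel08317. The lowest adjusted p of the edgeR test among them was 0.801. On Novel08317 the direction turned without replicate 1 of DTT with TUDCA (0.14), and on Novel17129 with limma on the log2 of the authors' per-library signal (-0.43).

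**Figure D3:**
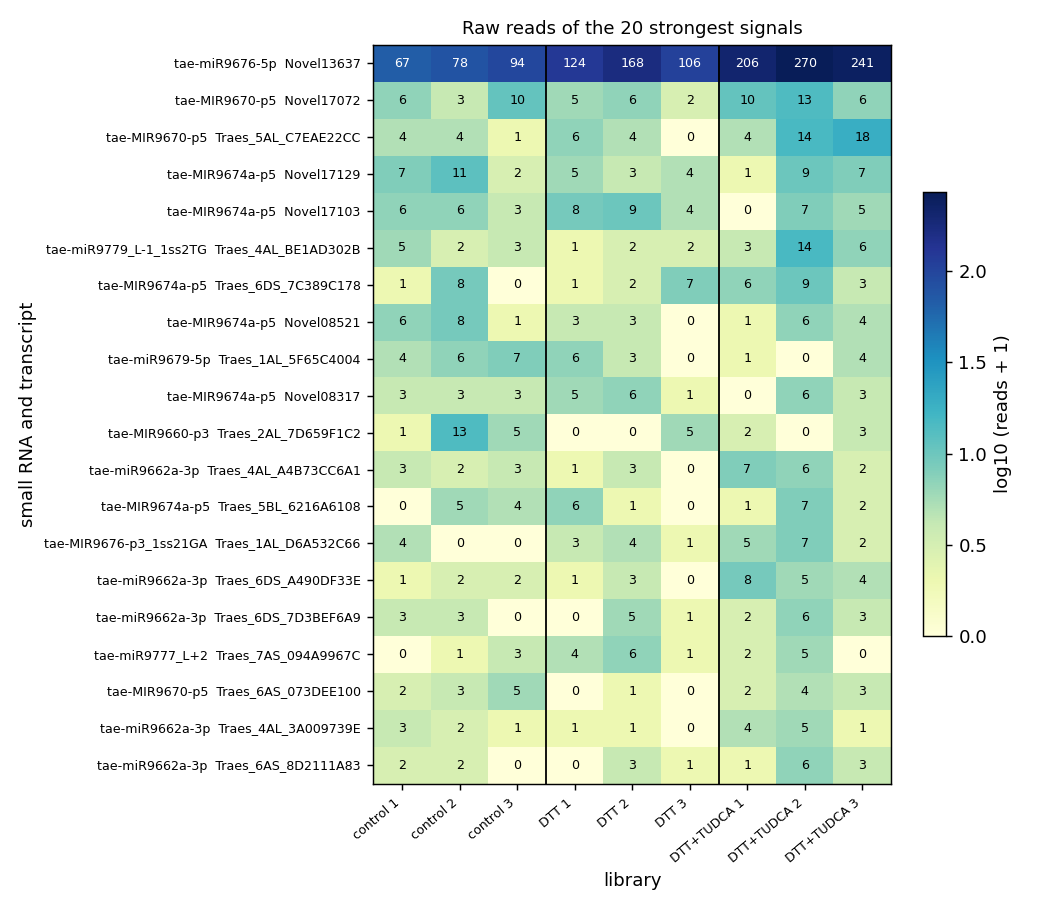
Raw reads of the 20 signals with the most reads (rows) in each of the 9 libraries (columns), printed in each cell and coloured by log10(reads + 1). Only tae-miR9676-5p on Novel13637, in the top row, has over 18 reads in any library, and replicate 1 with TUDCA has 0 or 1 reads of tae-MIR9674a-p5 on 5 of its 6 transcripts.

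miR9662 and miR9670 were each represented by 1 small RNA, tae-miR9662a-3p and tae-MIR9670-p5. Each was listed on 46 transcripts, and most of either list fell on the short arms of 1 chromosome group. By their identifiers, 36 of the 46 transcripts of tae-miR9662a-3p (78.3%) and 30 of the 46 of tae-MIR9670-p5 (65.2%) lay on the short arms of the group 6 chromosomes (6AS, 6BS and 6DS). In the whole series 329 of 7483 transcripts (4.40%) lay there. All these shares count transcripts, so copies listed with nearly the same counts are counted separately. As signals, the 46 transcripts formed 25 for tae-miR9662a-3p and 19 for tae-MIR9670-p5. Outside these arms the lists had only 4AL in common: tae-MIR9670-p5 was also listed on 10 transcripts of the group 5 chromosomes (5AL, 5BL, 5DL and 5DS), and tae-miR9662a-3p on 5 of group 7 (7AS, 7BS and 7DS). The 2 small RNAs shared 12 transcripts, 26.1% of each list. On these the reads differed, as on Traes_4AL_A4B73CC6A1 with 27 reads of tae-miR9662a-3p and 2 of tae-MIR9670-p5.

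**Figure D4:**
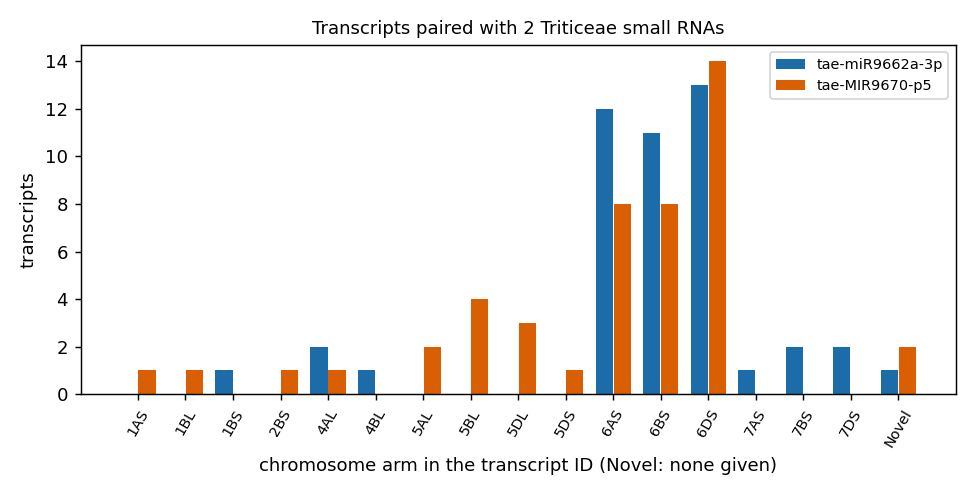
Number of transcripts (vertical axis) listed with tae-miR9662a-3p and with tae-MIR9670-p5, by the chromosome arm in the transcript identifier, where the last bars are identifiers without an arm. The arms 6AS, 6BS and 6DS together hold 36 transcripts of the former and 30 of the latter.

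The strongest signal of tae-miR9662a-3p, on Traes_4AL_A4B73CC6A1, had 3, 2 and 3 reads in the control, 1, 3 and 0 with DTT and 7, 6 and 2 with TUDCA. On Traes_6DS_A490DF33E it had 1, 2 and 2, then 1, 3 and 0, then 8, 5 and 4. On the latter all libraries with TUDCA lay above all others, and on the former they overlapped. Among all signals tested, the groups did not overlap for 22.9% in DTT with TUDCA against the control and 15.5% against DTT. The raw number was 5.12 and 4.64 times the authors' normalized number on these transcripts, so their reads appear to have been shared over several places. No tae-miR9662a-3p signal had enough reads to enter a test. Of its 25 signals, 10 had 10 reads or more and 7 had 3 or fewer.

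tae-MIR9670-p5 was strongest on Novel17072, a signal spread over 4 transcripts with a raw number 4.87 times the normalized, with 6, 3 and 10 reads in the control, 5, 6 and 2 with DTT and 10, 13 and 6 with TUDCA. The log2 difference was -0.62 (SE 0.83) for DTT against the control, 0.50 (SE 0.60) with TUDCA against the control and 1.12 (SE 0.65) with TUDCA against DTT, with adjusted p-values from edgeR of 0.749, 0.682 and 0.752. None of these passed the threshold. On Traes_5AL_C7EAE22CC, which stands for 5 transcripts, it had 4, 4 and 1 reads in the control, 6, 4 and 0 with DTT and 4, 14 and 18 with TUDCA. Replicates 2 and 3 with TUDCA were higher than all other libraries, and replicate 1 was within the range of the other treatments.

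The Traes_5AL_C7EAE22CC signal of tae-MIR9670-p5 was too low for the test against the control. With TUDCA against DTT it stood at 1.80 on the log2 scale (SE 0.79), with an unadjusted p of 0.0348 and an adjusted p of 0.669 by edgeR's quasi-likelihood test. Without replicate 1 of DTT with TUDCA it entered the test against the control and was called higher there by edgeR, by 2.30 (adjusted p = 0.0116). Its control libraries, at 4, 4 and 1 reads, lay under the minimum count of 5. The signal was therefore admitted only through the treatment in which it was high, and this call is not separate support for a difference. Without merging, tae-MIR9670-p5 on Traes_6AS_7B7540F6D, Traes_6DS_1CC9DD1EC and Traes_6DS_BF460054E was called higher against the control by edgeR. The values were identical, each 1.88 (SE 0.62, adjusted p = 0.0321), so these lines are not separate results. These calls therefore depended on how lines were counted and on 1 library.

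DTT replicate 3 was low for both families. Summed over all signals, tae-miR9662a-3p had 24, 24 and 29 reads in the control, 19, 31 and 4 with DTT and 38, 37 and 32 with TUDCA. tae-MIR9670-p5 had 14, 14 and 30, then 19, 21 and 5, then 21, 42 and 41. That library was the lowest of the series as a whole, with 3700 signal reads per 10M against 4057 to 5870 in the others. Of the signals with 10 reads or more, 8 of 10 for tae-miR9662a-3p and 3 of 4 for tae-MIR9670-p5 had no read in it. The sums with TUDCA were 27.9 ± 2.14 reads per 10M for tae-miR9662a-3p and 27.1 ± 9.29 for tae-MIR9670-p5, against 21.4 ± 3.76 and 16.4 ± 8.90 in the control (SD, n = 3). For tae-miR9662a-3p the lowest library with TUDCA had 25.5 reads per 10M, below the highest control library at 25.8. The part of a general difference between libraries in these sums was not tested.

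miR9668 differed from the rest in what it was listed on. Its 40 signals covered 156 transcripts, and 139 of those (89.1%) carried identifiers starting with EPlTAEG, against 12.8% of transcripts in the whole series. The sources used here do not annotate these identifiers. The hairpin arm tae-MIR9668-p5_1ss23AG accounted for 147 of the transcripts, and 108 of these (73.5%) were also listed with a small RNA outside the number range. The shared lists were those of tae-MIR1122a-p5 (49 transcripts), tae-miR1127b-3p_1ss12TC (47), tae-MIR1127a-p3_1ss11CG (46) and tae-MIR5175-p3 (40). Signals spread over many transcripts, up to 20 in 1 signal, and 25 of the 40 signals were merged with lines of other small RNAs. On EPlTAEG00000000598 tae-MIR9668-p5_1ss23AG covered 20 transcripts with 1 read, whose raw number was 4.0 times the normalized. Such a signal can join different reads, and how much of the spread came from merging by counts was not tested.

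Reads of miR9668 were few, with a median of 2 per signal and 31 signals at 3 or fewer. The largest, tae-MIR9668-p5_1ss23AG on EPlTAEG00000002337, had 2, 6 and 0 reads in the control, 4, 0 and 0 with DTT and 0, 3 and 0 with TUDCA. The p3 arm, tae-MIR9668-p3_1ss4TC, was listed on 9 transcripts with 26 reads in all. Over the family the level was 10.6 ± 4.39 reads per 10M in the control, 11.0 ± 5.48 with DTT and 12.5 ± 4.76 with TUDCA (SD, n = 3), and the treatments overlapped.

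The smaller families differed in how their reads were spread. miR9726 had 60 reads in 16 signals on 31 transcripts, and its strongest held 16 of them, whereas miR9679 and miR9660 each had 1 signal. gma-miR9726_L+1R-5 on Novel09328 had 1, 2 and 0 reads in the control, 5, 1 and 3 with DTT and 2, 0 and 2 with TUDCA. tae-miR9777_L+2 on Traes_7AS_094A9967C had 0, 1 and 3, then 4, 6 and 1, then 2, 5 and 0. tae-miR9772 on Traes_6AS_05309C728 had 4, 3 and 2, then 1, 0 and 0, then 5, 3 and 0. The last signal was also listed with PC-5p-14669_160, a small RNA outside the number range, and its reads cannot be told apart from those. Its 3 control libraries lay above the DTT libraries on counts too low to test. Among all signals tested, the groups did not overlap for 21.8% in DTT against the control. Over the whole miR9772 family the libraries overlapped, with 4, 4 and 2 reads in the control and 6, 1 and 0 with DTT.

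tae-miR9779_L-1_1ss2TG on Traes_4AL_BE1AD302B had 5, 2 and 3 reads in the control, 1, 2 and 2 with DTT and 3, 14 and 6 with TUDCA, and most of the TUDCA reads came from replicate 2. tae-miR9679-5p on Traes_1AL_5F65C4004, merged with a 1BL transcript, had 4, 6 and 7, then 6, 3 and 0, then 1, 0 and 4. The DTT libraries overlapped the control libraries, and the log2 difference of DTT against the control was -0.96 (SE 0.87, adjusted p = 0.635 by edgeR). It was -1.91 without DTT replicate 1, -0.39 without DTT replicate 3 and -2.91 with limma. tae-MIR9660-p3 on Traes_2AL_7D659F1C2 had 1, 13 and 5, then 0, 0 and 5, then 2, 0 and 3. Of its 29 reads, 13 came from control replicate 2.

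tae-MIR9672a-p3_1ss3GA on Novel06867 had 1, 0 and 0 reads in the control, 0, 2 and 0 with DTT and 1, 9 and 2 with TUDCA. Of these 15 reads, 9 came from replicate 2 with TUDCA, and they cannot be told apart from those of PC-3p-742312_2, a small RNA outside the number range. tae-MIR9774-p5 and tae-miR9775_R-3_1ss19GT had 14 and 12 reads, none of them with TUDCA. Of the 27 families, 5 had no read in the control, 3 none with DTT and 2 none with TUDCA. At such depths the absence of reads in 3 libraries leaves up to 3 reads per treatment possible by counting error alone.

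Few signals in the number range could be tested. The filter on low counts admitted 4 in DTT against the control, 6 in DTT with TUDCA against the control and 7 in DTT with TUDCA against DTT, 9 distinct signals in all, and 178 entered no test under this filter. Without the filter 155, 160 and 158 members were tested, and 0, 1 and 0 were called. Members admitted through a treatment in which they are high are not a sample of all members.

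In DTT against the control 0 of the 4 were called, where 3.21% of all 156 signals tested were called, and 0 had an unadjusted p under 0.05 by edgeR (16.7% of all tested). The number called was also 0 with DESeq2 and with limma. In DTT with TUDCA against the control 1 of the 6 was called, tae-miR9676-5p on Novel13637, against 9.64% of all 166 tested, and it was also the 1 member with an unadjusted p under 0.05 (19.9% of all tested). In DTT with TUDCA against DTT 0 of the 7 were called, against 1.07% of 187, with 1 at an unadjusted p under 0.05 by edgeR (6.95% of all tested) and 0 called with DESeq2 or limma. The median log2 difference of the tested members was -0.10, 0.10 and 0.81, and of all signals tested -0.08, 0.30 and 0.26. The treatments did not overlap for 0, 1 and 1 of these members, against 21.8%, 22.9% and 15.5% of all signals tested.

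**Figure D5:**
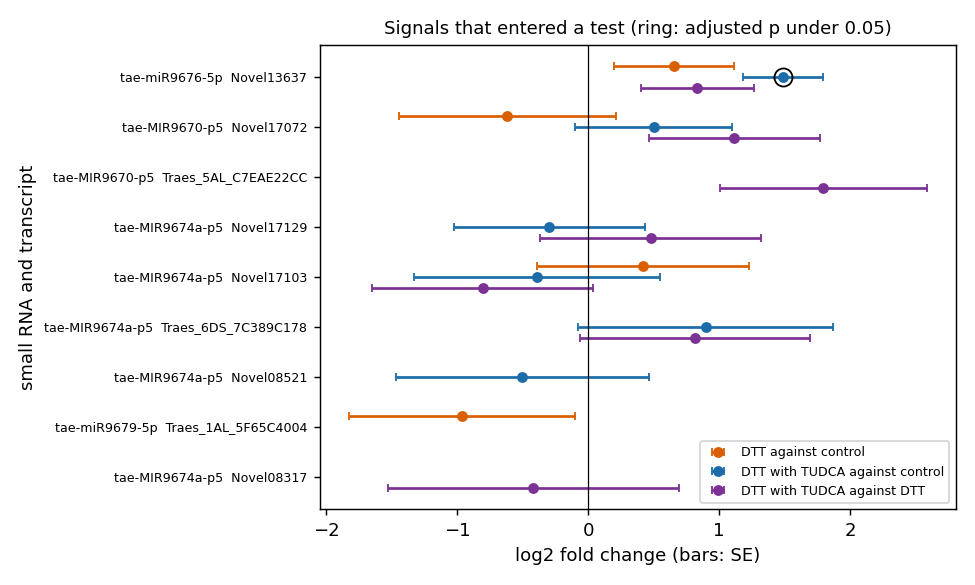
Log2 fold change (points) with its standard error (bars) of the 9 signals tested, in each comparison that admitted them, coloured by comparison; a ring marks an adjusted p under 0.05. The 1 ringed point is tae-miR9676-5p on Novel13637 in DTT with TUDCA against the control, at 1.49.

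Many signals spanned several transcripts. Of the 187, 92 covered more than 1 transcript, and 18 covered transcripts on the A, B and D arms of 1 chromosome group. Hexaploid wheat has these 3 subgenomes. Of the 18, the strongest held 13 reads and the next 7, and several held 1 read. Lines were merged by counts, so at this depth a signal can join different reads. The share of such signals in the whole series was not counted. Among the 209 transcripts with a chromosome in the identifier, 72 lay on subgenome A (34.4%), 68 on B (32.5%) and 69 on D (33.0%). The shares in the whole series were 33.2%, 33.7% and 33.1%. Reads that several transcripts share cannot be assigned to 1 copy. Of all 187 signals, 4 had reads in all 9 libraries, and 75 had reads in only 1 library.

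The presence of reads by treatment was compared with the whole series. Reads in all 3 treatments were found for 50 signals (26.7%, against 22.4% in the whole series), in the control only for 29 (15.5% against 15.7%), with DTT only for 27 (14.4% against 16.6%) and with TUDCA only for 32 (17.1% against 21.5%). Reads in the control and with DTT but not with TUDCA were found for 18 (9.63% against 6.12%), in the control and with TUDCA for 12 (6.42% against 7.67%), and with DTT and with TUDCA for 19 (10.2% against 10.1%). These shares were not tested, and a signal of few reads is often seen in 1 treatment by counting alone.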

How the data were processed

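Leaf degradomes of 3 treatments with 3 replicates each were analysed from 3 deposited tables, 1 per pair of treatments. Per the file headers, a line gives the raw read counts of a small RNA and a transcript in 6 libraries. The authors' second read number, headed normalized, was treated as an expected count. By its values it is the raw count over a divisor of 1 or more. The deposited signal per library, headed TPB, equals that number times 1 factor per library (tolerance 0.001). Library reads were recovered from this factor, on the assumption that the letters TPB give its scale. Mapper, transcript set and target caller: not given in the sources used here. Libraries were assigned to treatments by the letters in the column names. Each treatment has 1 sample label but 3 numbered columns. These columns were taken as the 3 independent biological replicates that the study's design text states.

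Lines with a small RNA or a transcript in common were merged into 1 signal where the absolute differences of their counts, added over 9 libraries, came to no more than 20% of the reads of the larger, and 3 pairs listed more than once were left out. A signal was assigned to the family of its line of that family with the most reads. Raw counts of all signals were tested with edgeR 4.0.16 (R 4.3.3; quasi-likelihood, library reads as library sizes, minimum count 5 and minimum total 10), with Benjamini-Hochberg adjustment over all signals tested and calls at 0.05. The standard error is the log2 difference divided by the square root of the F statistic. Alternatives were TMM, DESeq2 1.42.0, limma 3.58.1 on log2(TPB + 1), no filter, merging at 5%, no merging, 1 fit of all treatments, a replicate block and each library left out. The edgeR test was also run on counts simulated for signals past the filter, with changes larger than that of the signal called. Merging and filtering were not part of that run, and no result here rests on it.

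Named in full were all members tested or called, the strongest signal of each of the 10 largest families, and up to 10 more by reads. The members, lists and rules were chosen with earlier results of these data known. None of 7483 transcript identifiers matched the gene table provided, and no small RNA sequence was at hand, so neither annotation nor sequence is given.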

Additional observations from a re-analysis of the deposited data

How the results depend on the processing

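The call of tae-miR9676-5p on Novel13637 in DTT with TUDCA against the control held under all 9 alternatives (log2 1.26 to 1.50, adjusted p at most 0.0144 by edgeR, DESeq2 or limma) and without any 1 library (1.35 to 1.68, adjusted p at most 0.0227). The number of members called in that comparison, 1 of 6, became 4 of 18 without merging, through 3 tae-MIR9670-p5 lines with identical test values. It ran from 1 to 2 with 1 library left out. It stayed at 0 in both other comparisons under every alternative run. The miR9676 share of reads, 52.7%, was 33.7% without merging, where shared reads count several times, 68.0% by the authors' normalized read number and 51.2% to 54.3% with 1 library left out. Directions turned for tae-MIR9674a-p5 only. With TUDCA against the control, Novel17103 (range -1.02 to 0.18 with 1 library left out) went to 0.18 and Novel17129 (range -0.77 to 0.24) to 0.19 without replicate 1 of DTT with TUDCA, and Novel17129 to 0.24 without control replicate 2. With TUDCA against DTT, Novel08317 (range -0.88 to 0.14) went to 0.14 without replicate 1 of DTT with TUDCA, and Novel17129 to -0.43 with limma on log2 TPB. The causes of these turns were not tested. Of 253 values of the tested members, 248 kept their direction. Same-numbered libraries did not deviate together (correlations -0.11 to 0.08, 0.04 to 0.13 and -0.21 to -0.14 in the 3 comparisons), and with the replicate block the members called were 0, 1 and 0. Single libraries or limma moved several uncalled values by over 1.5 times: for tae-MIR9674a-p5 on Traes_6DS_7C389C178 against the control 0.36 to 3.20 with 1 library left out, for tae-miR9679-5p on Traes_1AL_5F65C4004 -1.91 to -0.39. Depth limits most signals, since 178 of 187 did not pass the filter on low counts; without it 155, 160 and 158 members were tested, with 0, 1 and 0 called.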
